A study of Sus scrofa with 4 samples.

Results

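Small nucleolar RNAs (snoRNAs), small Cajal body RNAs (scaRNAs) and spliceosomal small nuclear RNAs (snRNAs) were followed through a muscle RNA-seq table of 4 pig breeds. The members were all rows of the table of both types whose gene name started with SNORA, SNORD, SCARNA or snoU, or was U1 to U12, and whose value was above 0 in at least 1 breed. There were 97 such rows among 18208. RNA came from the longissimus dorsi, the long muscle of the back, with 1 library per breed. The indigenous Chinese type held the Diannan Small Ear pig (DSP) and the Tibetan pig (TP), and the introduced type held Landrace (LL) and Yorkshire (YY). No treatment, genotype, sex or age is given in the labels, nor how many animals stand behind a library, so each type had n = 2 and its spread was the spread between breeds, which holds that between libraries. The values were FPKM, fragment counts scaled to transcript length and to the mapped fragments of the library, as deposited. No counts or depths came with them, so no counting interval was computed.

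These RNAs guide and carry out RNA processing in the nucleus. Box C/D snoRNAs (SNORD) guide 2′-O-methylation and box H/ACA snoRNAs (SNORA) guide pseudouridylation, mostly of ribosomal RNA, and scaRNAs guide the same changes on snRNAs in Cajal bodies. U1, U2, U4, U5 and U6 build the major spliceosome and U12 belongs to the minor one, whereas U3 is a box C/D snoRNA that acts in pre-ribosomal RNA cleavage. In mammals most snoRNAs are cut from introns of host genes, many of which encode ribosomal proteins and translation factors. Most mature snoRNAs and snRNAs carry no poly(A) tail. The labels name a TruSeq RNA preparation of total RNA, a kit whose standard protocol selects polyadenylated RNA. The part of that step in the values below was not tested.

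The 97 rows comprised 41 SNORA, 7 SNORD, 6 SCARNA and 2 snoU rows, and 41 U rows. The U rows comprised 17 U1, 4 U2, 4 U3, 1 U4, 1 U5, 13 U6 and 1 U12 row. They carried 54 symbols, 12 of them on several rows, and lay at 87 distinct loci on 18 chromosomes and, for 5 rows, on unplaced scaffolds. Rows of U1, U2, U3 and U6 stand for near-identical gene copies, so reads could be split among them by the authors' counting and the value of a single copy is uncertain. Only 17 of the gene IDs were found in the Sscrofa11.1 name table, 14 of them under the same symbol. The row named snoU89 is listed there as SCARNA12, a small Cajal body RNA.

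The deposited locus spans showed 2 kinds of row. A first set of 54 rows had a locus under 300 bp, the size range of these RNAs, with a median of 144.5 bp. The other 43 rows had longer loci, up to 331645 bp, and 41 of these carried exactly the locus of another gene row, such as the gene whose intron holds the snoRNA. The remaining pair were the SCARNA2 rows of 411 and 435 bp. The spans of these 41 rows were not used as RNA lengths. Of the U1 rows in the cluster on chromosome 12, 4 listed a span of 150790 bp, shared with the germ cell gene TEX14. Their values of 135, 128 and 5.63 FPKM also occurred in U1 rows of 165 bp, and 2.48 lay within 5% of such a row.

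The tissue check found the fibre genes of the labelled muscle in every library. ACTA1, skeletal muscle actin, was 39517 FPKM for DSP, 47397 for TP, 16778 for LL and 50812 for YY. Of the 11 fibre markers 7 were found by name, and their summed FPKM ranged from 36322 for LL to 113573 for YY. Markers of other cells were found for 2 of 5 adipocyte genes, with sums of 1.01 to 11.99 FPKM and the defining gene LEP listed at 0 in DSP, LL and YY. The 5 of 7 macrophage and leukocyte genes summed to 8.85 to 35.6 FPKM and the 3 of 4 endothelial genes to 28.5 to 82.8 FPKM. The 4 smooth muscle genes summed to 48.4 to 194 FPKM, the 3 red blood cell genes to 80.9 to 528 FPKM and the 2 of 3 nerve genes to 11.9 to 34.0 FPKM. The sum of each of these 6 other lists was highest in TP, and the part of these cells in the results was not tested.

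The small RNA rows were far more abundant, by FPKM, in DSP and LL than in TP and YY, which split each type into a high and a low library. They summed to 30224 FPKM for DSP, 1171 for TP, 25347 for LL and 1824 for YY. As a share of the summed FPKM of all rows this was 2.08% for DSP, 0.133% for TP, 2.37% for LL and 0.149% for YY. The indigenous mean share was 1.11% ± 1.38 and the introduced mean share was 1.26% ± 1.57 (SD, n = 2 each). The difference of −0.154 percentage points was smaller than the spread within either type. A 2-sided exact permutation test gave p = 0.667, and 2 libraries against 2 cannot give a p under 0.333. In bulk tissue, fewer cells of a type and less RNA per cell cannot be told apart.

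**Figure D1:**
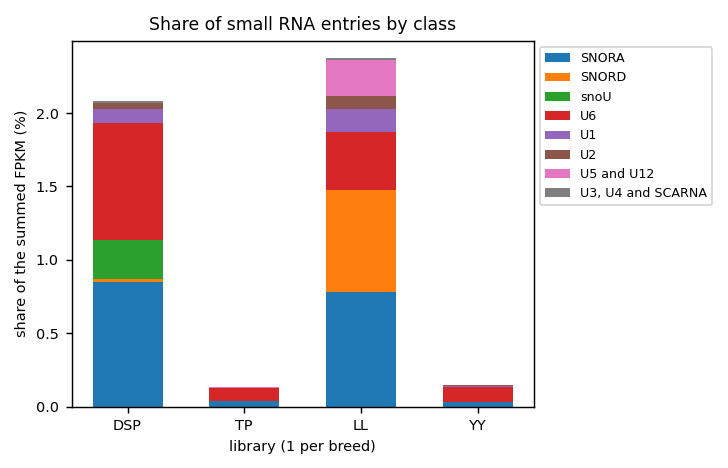
Share of the summed FPKM of all rows (%, linear axis from 0) taken by each class of small RNA row, stacked, in the 1 library of each breed. The bars reach 2.08% for DSP and 2.37% for LL against 0.133% for TP and 0.149% for YY.

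Other short loci were also highest in DSP and LL. The 111 other nuclear rows under 300 bp took 19.5% of the summed FPKM for DSP, 1.30% for TP, 15.9% for LL and 5.47% for YY. With 1 library per breed no test of this order was possible.

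Over the 97 rows, fewer small RNA rows were above 0 in DSP and LL than in TP and YY, while those above 0 had higher values. The place of LL in this order depended on symbols with several rows. With 1 row kept per symbol, LL had the fewest rows at 0, with 24 against 30 for DSP, 28 for TP and 29 for YY. Rows above 0 numbered 35 for DSP, 47 for TP, 44 for LL and 52 for YY, which is 36.1%, 48.5%, 45.4% and 53.6% of the 97. Among all rows, 90.8%, 90.7%, 92.6% and 86.7% were above 0. The median value of the rows above 0 was 270 FPKM for DSP, 8.58 for TP, 376 for LL and 11.97 for YY. Of the small RNA rows 46 were above 0 in 1 library only, 30 in 2, 12 in 3 and 9 in all 4. Over the whole table, a share of 80.4% was above 0 in all 4 libraries, against 9.3% of the small RNA rows.

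The libraries held different rows. Among the rows above 0 in 1 library, 16 belonged to TP, 13 to YY, 11 to LL and 6 to DSP. TP and YY shared 8 rows that were listed at 0 in DSP and LL, and DSP and LL shared 4 that were listed at 0 in TP and YY. The indigenous pair, DSP and TP, shared 2 rows that LL and YY both listed at 0, and the introduced pair shared 7 that DSP and TP both listed at 0. A value of 0 in FPKM can stand for a row with no read or for a failed estimate, and without counts these cannot be told apart.

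**Figure D2:**
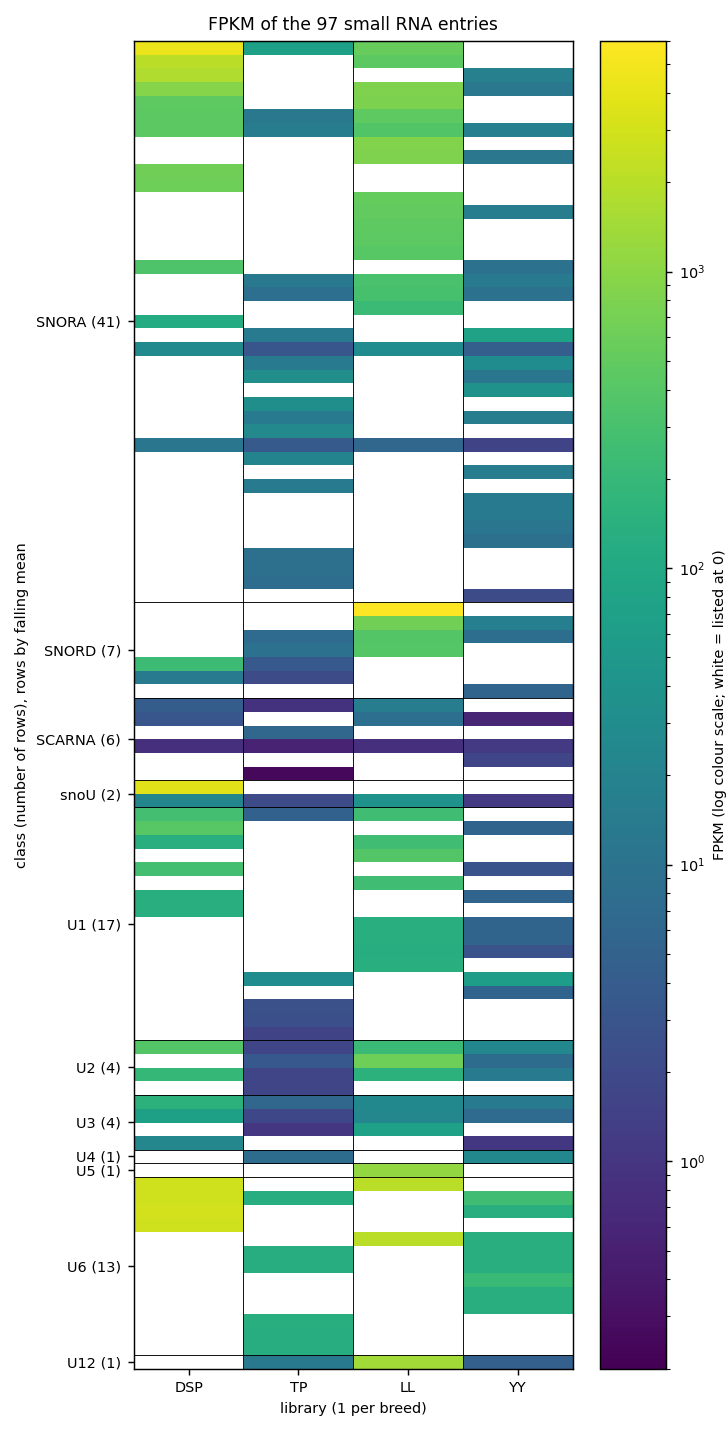
FPKM (log colour scale) of the 97 rows, grouped by class and ordered by mean within a class, in the 1 library of each breed; white cells are listed at 0. Filled cells are fewer and brighter in DSP and LL, where the median value above 0 was 270 and 376 FPKM, than in TP and YY, where it was 8.58 and 11.97.

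The box H/ACA snoRNAs made up 40.8% of the summed small RNA FPKM in DSP, 27.6% for TP, 32.8% for LL and 19.3% for YY. The SNORA row of highest mean was a SNORA63 row (ENSSSCG00000019309), at the EIF4A2 locus on chromosome 13 (133973436 to 133994801, build not given in the sources used here). It was 4479 FPKM for DSP, 69.9 for TP, 544 for LL and 0 for YY. The libraries of the 2 types overlapped, with DSP highest and YY lowest. A second SNORA63 row at the same locus was above 0 for TP alone, at 34.0 FPKM.

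SNORA71, read from a pair of neighbouring rows on chromosome 17, had different libraries above 0 in each row. The row of 132 bp was 2082 FPKM for DSP, 0 for TP, 446 for LL and 0 for YY. The row of 134 bp was 0 for DSP, 0 for TP, 810 for LL and 11.7 for YY. SNORA70 was 912 FPKM for DSP, 0 for TP, 826 for LL and 12.2 for YY, so that the types overlapped. A SNORA31 row of 129 bp was 1741 FPKM for DSP and 18.1 for YY and listed at 0 in TP and LL, whereas the other SNORA31 row was 32.7 for TP and 11.4 for YY and listed at 0 in DSP and LL.

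SNORA3 was the only SNORA symbol with 3 rows, all on chromosome 9. The first row was 639 FPKM for DSP and listed at 0 elsewhere. A second row with the same deposited locus was 14.5 for TP and 76.7 for YY, and the third was 14.5 for TP and 30.7 for YY. Both were listed at 0 in DSP and LL, and the TP value was identical in these 2 rows.

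A group of SNORA rows lay close together on chromosome 9, between 29685340 and 29799302, and each was above 0 in a single library. SNORA18 was 14.3 FPKM for YY and listed at 0 in the others. SNORA8 was 8.04 FPKM for TP only, SNORA1 was 407 FPKM for LL only and SNORA32 was 25.3 FPKM for TP only. SNORA8 and SNORA32 thus shared their library, and SNORA1 and SNORA18 were each above 0 in another.

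The box C/D snoRNAs of the SNORD rows took 29.3% of the small RNA FPKM in LL and between 0.825% and 1.90% in the other libraries. SNORD88 alone, the row with the shortest locus at 92 bp, was 5973 FPKM for LL and listed at 0 in DSP, TP and YY. SNORD22 was 672 FPKM for LL and 17.1 for YY and 0 in both indigenous libraries. SNORD15 split by row: the row of 151 bp was 236 FPKM for DSP and 3.62 for TP and listed at 0 in LL and YY, and the row at the RPS3 locus was 5.63 FPKM for YY only. SNORD17, on chromosome 17, was 13.5 FPKM for DSP and 2.09 for TP and 0 in both introduced libraries.

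SNORD94, which in human guides a methylation of U6, was 9.22 FPKM for TP and 390 for LL and listed at 0 in DSP and YY. SNORD97 was 0 for DSP, 7.28 for TP, 386 for LL and 8.14 for YY. Among the snoU rows, snoU13, a box C/D snoRNA, was 3838 FPKM for DSP and listed at 0 elsewhere. The snoU rows took 12.8% of the small RNA FPKM in DSP. The other, snoU89, was 22.8 FPKM for DSP, 2.07 for TP, 40.0 for LL and 1.14 for YY.

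The SCARNA rows were low in every library, with sums of 8.30, 7.63, 24.2 and 3.46 FPKM for DSP, TP, LL and YY, so that DSP and TP were close. SCARNA13, with a locus of 277 bp the longest of those under 300 bp, was 4.26 FPKM for DSP, 0.921 for TP, 14.9 for LL and 0 for YY. The SCARNA2 row of 411 bp was 0.827 FPKM for DSP, 0.535 for TP, 0.792 for LL and 1.13 for YY, and YY was its highest library. SCARNA6 was 3.22 FPKM for DSP, 0 for TP, 8.54 for LL and 0.611 for YY. SCARNA16 was above 0 for YY alone, at 1.72 FPKM, and SCARNA17 for TP alone, at 5.93 FPKM.

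U6, the snRNA at the catalytic centre of the spliceosome, held the largest share of small RNA FPKM in TP (62.9%) and YY (68.1%), against 38.4% for DSP and 16.5% for LL. Of its 13 rows 4 were above 0 for DSP, 6 for TP, 2 for LL and 8 for YY. The values above 0 lay close together within a library. They ranged from 2870.02 to 2998 FPKM for DSP, from 121 to 128 for TP and from 2093 to 2098 for LL. In YY 6 of 8 lay within 5% of the smallest, 128 FPKM, and the highest was 258.

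The U1 rows, of the snRNA that recognises the 5′ splice site, also took few distinct values. Across the 16 rows other than a U1 row of 185 bp, 4 of them with the TEX14 span, 6 were above 0 for DSP, 4 for TP, 8 for LL and 8 for YY. In DSP they took the values 135, 270 and 405 FPKM, at 3, 2 and 1 rows. In LL they were 125 or 128 at 4 rows, 255 at 3 and 386 at 1. In YY 2 rows were at 2.81 FPKM, 5 at 5.63 and 1 at 62.9, and in TP the rows were at 2.48, 2.55, 4.95 and 29.8.

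A single row on chromosome 11 held the high U1 value in both TP and YY. This row, ENSSSCG00000026623 (75591888 to 75592052), was 29.8 FPKM for TP and 62.9 for YY and listed at 0 in DSP and LL. A nearby U3 row on chromosome 11 was above 0 in every library, at 149 FPKM for DSP, 6.07 for TP, 24.4 for LL and 13.6 for YY.

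The U1 and U6 values in a library were mostly whole multiples of the smallest, those of U2 and U3 less so. Over U1, U2, U3 and U6, 70 values were above 0, and 61 of them lay within 0.1 of a whole multiple of the smallest value of that family and library. Of the 70 values 39 lay within 5% of the smallest itself, and both counts include the smallest, which matches by construction. With the smallest included, 2 of 3 U3 values in each library lay within 0.1 of a whole multiple. For U2 it was 2 of 2 in DSP, 4 of 4 in TP, 2 of 3 in LL and 1 of 3 in YY. Where whole reads are counted, rows of equal length take whole multiples of what 1 read is worth. Whether the smallest value was 1 read was not tested, since no counts were given.

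That smallest value itself differed between libraries. For U6 it was 2870.02 FPKM for DSP, 121 for TP, 2093 for LL and 128 for YY, so that DSP was 23.6 times TP and LL 16.3 times YY. For U1 it was 135, 2.48, 125 and 2.81 FPKM, with ratios of 54.5 and 44.6. For U3 it was 23.8, 1.01, 23.4 and 1.07 FPKM, with ratios of 23.5 and 21.9, and for U2 194, 1.70, 153 and 7.62 FPKM, with ratios of 114 and 20.1. Counted in units of the smallest value, YY was highest for U6, U1 and U3. For U2 the smallest value was no common unit. Other U2 rows were at 1.49 times it in LL and at 1.74 and 3.22 times it in YY, so the U2 units cannot rank the libraries. The U6 rows summed to 4.05 such units in DSP, 6.07 for TP, 2.0 for LL and 9.67 for YY, and the U1 rows to 10, 16.1, 13.2 and 34.4. In the same order the U3 rows summed to 10.2, 8.87, 5.17 and 20.7, and the U2 rows to 2.98, 5.03, 6.49 and 5.96.

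**Figure D3:**
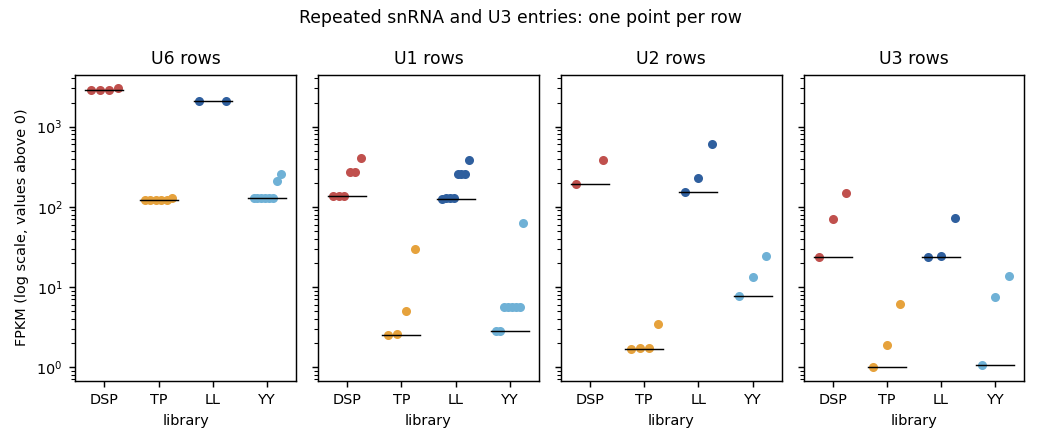
FPKM (log axis, values above 0) of the U6, U1, U2 and U3 rows in each library; each point is a row and the black line marks the smallest value of the family in that library. Points sit on the line or above it, and the line for U6 lies at 2870.02 FPKM for DSP and 2093 for LL against 121 for TP and 128 for YY.

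Of the other spliceosomal rows, U2, which pairs with the branch point, was above 0 in all 4 libraries at 2 of its 4 rows. The row ENSSSCG00000028281 was 384 FPKM for DSP, 1.70 for TP, 228 for LL and 24.5 for YY, and ENSSSCG00000027405 was 194, 1.71, 153 and 13.3 FPKM in the same order. A U4 row was 7.64 FPKM for TP and 24.1 for YY and listed at 0 in DSP and LL. A U5 row was 1129 FPKM for LL and listed at 0 in the others. U12 was 0 for DSP, 12.7 for TP, 1459 for LL and 4.81 for YY.

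A cluster on chromosome 12, from 35716299 to 36000403, held 13 rows, 10 of U1 and 3 of U3. It summed to 1311 FPKM for DSP, 10.3 for TP, 1118 for LL and 33.9 for YY. Of these rows 7 were above 0 for DSP, 4 for TP, 7 for LL and 7 for YY.

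The values were lower at the longest spans than at the shortest, though not step by step. Among small RNA rows from 90 to 109 bp, the median above 0 was 2877 FPKM for DSP, 122 for TP, 2098 for LL and 129 for YY. From 140 to 169 bp it was 253, 6.78, 255 and 5.63 FPKM, and from 170 to 199 bp it was higher again for DSP, at 289 FPKM, and for YY, at 10.4 FPKM. From 200 to 239 bp it was 49.7, 2.09, 27.3 and 7.49 FPKM, and the only row above 0 in all 4 libraries with its own locus over 300 bp, SCARNA2, was between 0.535 and 1.13 FPKM. Among other nuclear rows from 90 to 109 bp, with only 1 or 2 above 0 per library, the medians were 12579, 1829, 2824 and 2796 FPKM for DSP, TP, LL and YY. From 110 to 139 bp their medians above 0 were 5074, 74.9, 12707 and 69.3 FPKM in the same order, and from 300 to 449 bp, at 98 to 101 rows above 0, they were 2.61, 1.20, 2.30 and 1.52 FPKM. The program that turned reads into FPKM and the fragment lengths of the libraries were not given in the sources used here, and their part was not tested.

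**Figure D4:**
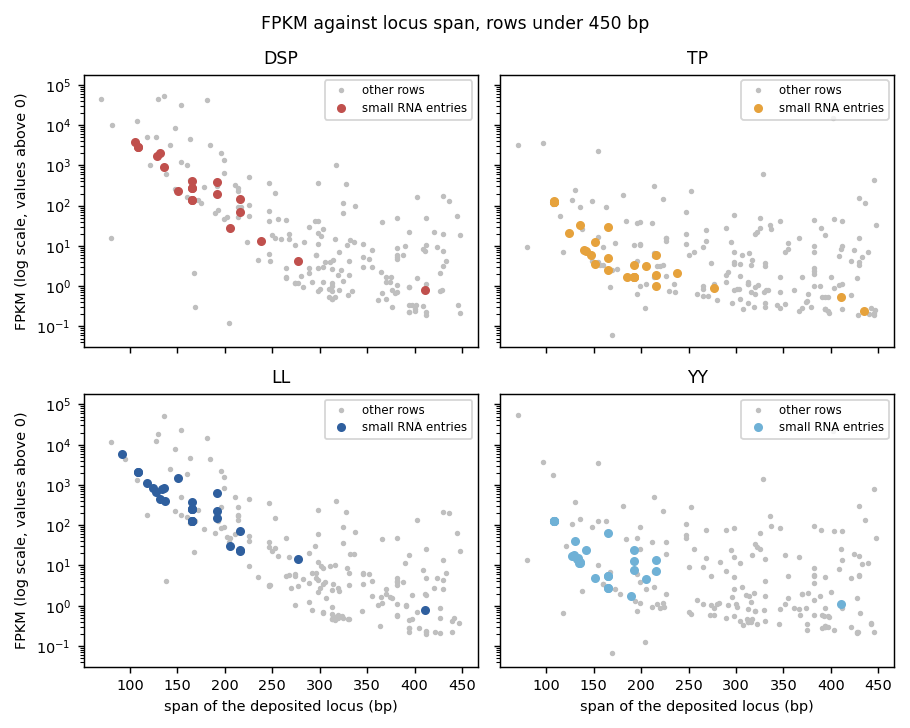
FPKM (log axis, values above 0) against the span of the deposited locus (bp, linear axis) for rows under 450 bp, with small RNA rows in colour and other nuclear rows in grey, 1 panel per library. The small RNA values go from medians of 2877 FPKM for DSP and 122 FPKM for TP at 90 to 109 bp to between 0.535 and 1.13 FPKM at 411 bp.

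Row by row, the 2 breeds of a type stood far apart. The 16 rows above 0 in both DSP and TP were all higher in DSP, with a median ratio of 26.6 (1.54 to 226), and SCARNA2 alone turned to higher in TP under rescaling to a common sum. Of the 23 rows above 0 in both LL and YY, 22 were higher in LL, with a median ratio of 22.7 (0.700 to 303), and SCARNA2 was the exception. The ratio of DSP to LL, at 19 rows, had a median of 1.10, and that of TP to YY, at 23 rows, had a median of 0.700. These pairs share libraries. Only rows above 0 in both libraries of a pair enter its ratios. For U1, U2, U3 and U6 the smallest value above 0 was itself higher in DSP and LL, so this choice bears on the direction. Over all other rows the median ratio was 1.11 for DSP to TP and 1.09 for LL to YY, and over the other nuclear rows under 300 bp it was 6.41 and 6.31.

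The count of rows at least 2-fold apart on the log2(FPKM + 1) scale includes the zeros. Between DSP and TP, 61 of the 61 rows whose 2 values averaged 1 FPKM or more were at least 2-fold apart, 34 higher in DSP and 27 higher in TP. Of all rows 15.6% were at least 2-fold higher in DSP and 7.76% in TP. Of the rows called in this pair, 66.8% of all rows were higher in DSP, but 53.7% after rescaling to a common median ratio and 14.9% after rescaling to a common sum, against 55.7%, 55.7% and 52.5% of the small RNA rows. Between LL and YY it was 69 of 70 rows, 42 higher in LL and 27 higher in YY, against 13.4% and 16.7% of all rows. Rescaling to a common sum moved the share of called rows higher in LL from 44.5% to 64.2% over all rows and from 60.9% to 62.3% over the small RNA rows. A row listed at 0 in 1 of the pair passes this rule by its construction once its mean reaches 1 FPKM. The median difference on this scale was 2.23 for DSP minus TP over the 61 rows and 0.20 over all rows, and 4.0 for LL minus YY over the 70 rows and 0.00 over all rows. Under the common sum the medians were 1.54 and −0.53 for DSP minus TP, and 4.34 and 0.28 for LL minus YY. With 1 library per breed these are descriptions with no test.

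The 9 rows above 0 in all 4 libraries, chosen after their values were seen, were SNORA2, SNORA53, SNORA73, SCARNA2, snoU89, 2 of U2 and 2 of U3. The types overlapped in every one of them. SNORA73, a box H/ACA snoRNA known from vertebrates as U17, was 27.9 FPKM for DSP, 3.14 for TP, 30.2 for LL and 4.48 for YY. SNORA2 was 451, 15.7, 367 and 17.1 FPKM, and SNORA53 was 11.4, 3.64, 5.99 and 1.64 FPKM in the same order. A U3 row on chromosome 12 was 71.4, 1.90, 23.4 and 7.49 FPKM.

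Between the types no small RNA row passed. limma on log2(FPKM + 1) tested 89 of the 97 rows, those with a mean of at least 1 FPKM, among 11652 rows in all, and at an adjusted p under 0.05 it called 0 of the 89 and 0% of all rows. At an unadjusted limma p under 0.05 it listed 13 small RNA rows, 2 of them higher and 11 lower in indigenous pigs, which is 14.6% of those tested against 1.12% of all rows. By direction the shares of all rows were 0.549% higher and 0.566% lower. The filter on the mean also lets in rows that are high in 1 library alone, so these shares are descriptions. The median difference, indigenous minus introduced, was −0.46 over the 89 rows and −0.02 over all rows tested.

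The smallest p belonged to a U6 row (ENSSSCG00000023068), which was listed at 0 in DSP and TP and was 2098 FPKM for LL and 129 for YY (limma adjusted p = 0.389). SNORA20, SNORD22, the 134-bp SNORA71 row and a U1 row (ENSSSCG00000027116) completed the 5 smallest. That U1 row tied with a U1 row of the TEX14 span (ENSSSCG00000027424), which had the same value in every library. All 5 were 0 in both indigenous libraries, and LL was 128 to 2098 FPKM against 5.63 to 129 for YY. Other copies of U6, SNORA71 and U1 had values in DSP or TP. In the U6 row the difference, indigenous minus introduced, was −9.03 on the log2(FPKM + 1) scale. It was −11.0 without YY and −7.02 without LL, where 1 introduced library is left.

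The 2 types did not overlap at 13 of the 89 rows, or 14.6%, against 18.6% of all rows tested. A row above 0 in a single library has a value of 0 in both types, so it cannot pass. Before the filter on the mean, such rows made up 47.4% of the small RNA rows against 6.9% of all rows. The shares of 14.6% and 18.6% therefore cannot set the small RNA rows against the whole table. Of the 13, 2 were higher and 11 lower in indigenous pigs. The 2 higher were SNORD15 and SNORD17, whose values stand above. A gap of at least 2-fold was found at 9 of the 13. The split by direction and the gap were not counted over all rows, so both only describe these rows.

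The authors' deposited table lists a false discovery rate under 0.05 for 55 of the 97 small RNA rows, or 56.7%, against 605 of 18208 rows, or 3.32%. The small RNA rows made up 9.09% of those called in the authors' deposited table. Of the 55 rows called there, 23 were higher and 32 lower in indigenous pigs, 25 were above 0 in a single library and 38 had a single library above 0 in the higher type. The highest library of the 55 rows called in the authors' deposited table was DSP for 19, LL for 27, YY for 5 and TP for 4. Of the other nuclear rows under 300 bp, 39 of 111, or 35.1%, were called in the authors' deposited table, and 2.84% of the remaining 18000 rows. SNORD88, at 5973 FPKM for LL and 0 for YY, has a false discovery rate listed as 0 in the authors' deposited table. The test behind the authors' deposited table is not named in the labels, and 33 of the 55 rows called in it had 1 type listed at 0.

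The gene rows that share a locus with small RNA rows could be set beside them. The 41 small RNA rows that shared a locus fell on 31 other gene rows, all above 0 in all 4 libraries. The ratio of the highest to the lowest library was 1.20 to 6.95 over these 31 rows, with a median of 2.13. Of the 41 small RNA rows 3 were above 0 in all 4 libraries and 20 in a single one. The gene rows were highest in YY at 18 loci, in DSP at 7, in LL at 5 and in TP at 1, and the small RNA rows were highest in LL for 14, DSP for 11, YY for 10 and TP for 6.

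EIF4A2, an RNA helicase of translation initiation, was 1063 FPKM for DSP, 623 for TP, 777 for LL and 1325 for YY. At its locus SNORA81 was 440 FPKM for DSP, 12.2 for TP, 473 for LL and 0 for YY, and SNORA4 was 0, 13.0, 316 and 14.8 FPKM in the same order. YY thus had the highest EIF4A2 value and listed both SNORA63 rows and SNORA81 at 0. TCP1, a chaperonin subunit, was 55.8, 40.8, 44.2 and 74.3 FPKM, whereas SNORA20 at its locus was 502 for LL and 15.8 for YY only and SNORA29 was 8.96 for TP only. EIF4G2, another translation factor, was 930.0 FPKM for DSP, where SNORD97 at its locus was listed at 0.

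**Figure D5:**
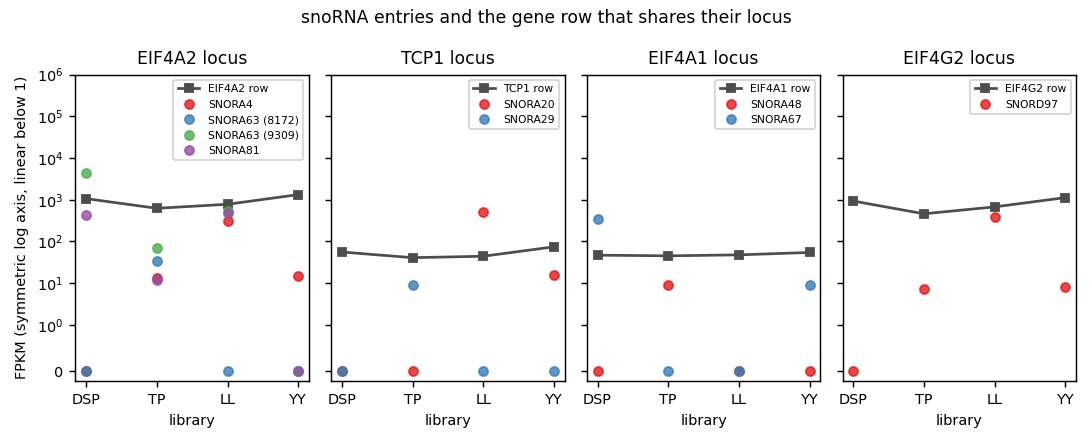
FPKM (symmetric log axis, linear below 1, so that 0 can be drawn) of the gene row (grey squares, joined) and the snoRNA rows (circles) at the EIF4A2, TCP1, EIF4A1 and EIF4G2 loci in each library; the digits beside SNORA63 end the gene IDs of its 2 rows. The gene rows stay within 2.44-fold across the libraries, while the snoRNA rows move between 0 and, for SNORA63, 4479 FPKM.

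The genes for proteins that work with these RNAs were described by 7 lists. In each list limma called 0 rows at an adjusted p and 0 at an unadjusted p under 0.05. Of the box C/D core proteins 4 of 5 were found, with a median difference, indigenous minus introduced, of −0.02. FBL, the methyltransferase fibrillarin, was 21.5 FPKM for DSP, 30.6 for TP, 16.6 for LL and 38.1 for YY, and NHP2L1, which binds both U4 and box C/D RNAs, was 101, 141, 68.9 and 187 FPKM. Of the 4 box H/ACA core proteins 3 were tested, with a median difference of −0.18, among them NOP10 at 139, 114, 84.2 and 164 FPKM and DKC1, the pseudouridine synthase dyskerin, at 14.8, 9.70, 13.1 and 18.2 FPKM. All 4 of these rows were highest in YY, as was NHP2 of the box H/ACA core. NHP2 was 4.31 FPKM for DSP, 18.7 for TP, 3.16 for LL and 31.1 for YY.

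The 13 assembly and localization factors had a median difference of −0.31, led by NOLC1, a nucleolar phosphoprotein, at 22.6, 11.4, 21.8 and 24.0 FPKM for DSP, TP, LL and YY. Of the Sm and LSm ring 13 rows were tested, with a median of 0.01. SNRPB, a shared Sm protein, was 76.2, 57.6, 47.0 and 78.4 FPKM. LSM2, of the ring that binds U6, was also higher in DSP and LL than in TP and YY, at 467, 32.6, 695 and 37.6 FPKM, and its deposited locus spanned only 451 bp. The 12 snRNP assembly factors had a median of −0.20, with WDR77, of the arginine methylation complex, at 35.2, 24.2, 27.2 and 36.7 FPKM. The 23 snRNP-specific proteins tested had a median of −0.22, with SF3B1 of the U2 snRNP at 83.2, 54.6, 62.9 and 54.7 FPKM. The 38 of 53 listed host genes that were found had a median of −0.21. Their summed FPKM was 9176 for DSP, 12352 for TP, 7056 for LL and 23055 for YY, so DSP and LL had the lower host sums.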

How the data were processed

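Per the submitters' processing notes, TopHat was among the tools used. Its version, the genome build, the annotation and the program that computed FPKM are not given in these notes. The authors deposited 1 FPKM value per row and breed, with the pooled FPKM of each type, and the ratio, or fold change, of the pooled values. They also deposited a p-value and a false discovery rate per row, whose test the labels leave unnamed. No read counts came with the values, so depth is unknown.

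The members and gene lists were chosen with earlier results of these data known. The types were compared with limma 3.58.1 in R 4.3.3 on log2(FPKM + 1), with a trended prior variance, over the rows averaging 1 FPKM or more, and p-values were adjusted by Benjamini-Hochberg over all 11652 rows. Breeds served as replicates, so p-values measure the spread between breeds. Fold changes on this scale understate those of low rows. Breed pairs were set side by side without a test, with a 2-fold threshold. The limma step was tested on simulated normal log2 values that did not mimic the zeros of the small RNA rows. Other steps used Python 3.11.15 (pandas 2.3.3, numpy 2.4.6 and scipy 1.17.1), and plots matplotlib 3.10.9.

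Rows were named by a rule: the 5 rows of highest mean per class, the 5 smallest p, the largest differences, all symbols with 3 or more rows, the gene rows sharing a locus with abundant members, and the 2 most abundant of each protein list. Not every row that the rule picks is printed, with SNORA58, SNORA40, RUVBL1, CLNS1A, SNRPC and EEF2 among those left out. Rows outside the rule (SNORA53, SNORA73, SNORD17, DKC1 and the chromosome 9 group among them) were chosen after their values were seen. Alternatives were the pseudocount, the filter, the scaling, the prior, leaving out a library, the rows in the sum and 1 row per symbol. Of 111 other nuclear rows under 300 bp group values are given. The other deposited sheets repeat rows of the first and were not used.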

Additional observations from a re-analysis of the deposited data

How the results depend on the processing

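No paired analysis was possible because the labels number no replicates and the 4 breeds are not paired in them. The count of small RNA rows passing between the types was 0 under every pseudocount, filter, scaling and prior tried and ranged from 0 to 18 when each library was left out in turn, with 18 reached without YY. There the lone LL library is assumed to vary like the indigenous pair. The smallest adjusted p of a small RNA row in limma was 0.389, and 0.059 to 0.9999 across the alternatives other than leaving out a library. Without the 50 most abundant other rows in the sum, the share of small RNA rows was 5.93% in DSP and 6.15% in LL, and it stayed under 0.34% in TP and YY. With 1 row kept per symbol, the rows at 0 numbered 30 for DSP, 28 for TP, 24 for LL and 29 for YY, and the share fell from 0.133% to 0.0323% in TP and from 0.149% to 0.0252% in YY, against 1.40% in DSP and 1.87% in LL. Of 61 alternatives for these counts and shares, 54 were labelled unchanged. For counts this meant keeping their side of the threshold or staying within 1.5 times. For shares it meant a move of less than 1 SD between the breeds of a type, a wide limit that the TP and YY shares cannot exceed downward. For the difference in mean share between the types it meant only the same sign. That difference ran from −0.407 to −0.027 percentage points, against −0.154 in the main setting. Rescaling to a common sum, taken without small RNA and mitochondrial rows, left 32 rows higher in DSP and 29 higher in TP, against 34 and 27 as deposited. Without counts, neither the depth behind a value nor that behind a 0 is known, and 1 library per breed leaves breed and library preparation inseparable.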
